A study of Mus musculus with 20 samples.

Results

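Endo is the smaller of the 2 endothelial clusters that the authors named among the cells of mouse kidneys after bilateral ischemia reperfusion injury (IRI). Its members are the cells that carry the name Endo in the deposited cluster table, 1552 of 113579 cells, or 1.37%, and it ranks 15 of 18 clusters by size. The other endothelial cluster, GEC, holds 5848 cells. The deposited tables used here give a cluster name, a treatment group and 2 map coordinates for each cell and no UMI counts. Pecam1, the endothelial adhesion molecule that should mark these cells, was therefore not analysed here, and the name rests on the authors' annotation and on a second annotation of the same cells.

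The mice were 10 to 12 weeks old male C57Bl/6J animals, and the study set them up to compare kidneys that repair well with kidneys that turn fibrotic. Both renal pedicles were clamped for 23 min (IRI short) or 30 min (IRI long), buprenorphine was given at the end of surgery, and kidneys were taken after 1, 3 or 14 d, 2 libraries per ischemia time and day. There were 6 control libraries, for which the labels give no time and no surgery. All kidneys were flushed through the heart and digested with enzymes, and each library was taken as 1 mouse. The paper names the 10X 3′ v3 method for the capture of single cells. Most control libraries differed in their barcodes from the IRI libraries, as described below. Whether the v3 method was used for every library was not tested. In an added experiment mice with 30 min of ischemia received VX-765 (100 mg/kg) or liproxstatin (10 mg/kg). The doses were injected before clamping and every 24 h after it until 14 d, with 1 library for each inhibitor. The labels name no library of mice given vehicle alone. VX-765 inhibits caspase-1, and liproxstatin inhibits the lipid peroxidation of ferroptosis.

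Endothelial cells line every vessel of the kidney. Those of the glomerulus are fenestrated and form part of the filter, while those of arterioles, peritubular capillaries, vasa recta and veins carry blood past the tubules and admit leukocytes in inflammation. The peritubular capillaries are known to be sensitive to ischemia, and their loss accompanies fibrosis. Which of these vessels the Endo cells came from is not stated in the labels.

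The number of cells sets the precision of a share. Libraries ranged from 2064 to 14320 cells, and the Endo cells in them from 3 to 375. No cell barcode occurred in more than 1 Endo cell, and 29 Endo cells had a barcode that was also found in another library. The overlap of barcodes with the control libraries divided the libraries into 2 kinds, called barcode sets below. For 5 control libraries it was that of random draws from 744614 to 819561 barcodes. For the control library norm5 and all IRI libraries it was lower, with estimates from 8.26e+06 upward. Whether norm5 and the IRI libraries drew from 1 common set was not tested. Barcode set and ischemia thus nearly coincide, so a difference between IRI and control cannot be told apart from one between barcode sets. The values of norm5 are therefore named below. The intervals given below are exact 95% binomial (Clopper-Pearson) intervals and cover counting error only.

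Endo cells were rare in control kidneys and more frequent after ischemia. They made up 0.253% ± 0.187 of the cells of a control library, against 1.31% ± 0.541 after short and 2.81% ± 2.07 after long ischemia (SD, n = 6 libraries each). Of the 1552 cells, 92 came from control, 498 from IRI short and 962 from IRI long libraries. IRI long at 1 d alone gave 702 of them, or 45.2%.

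In control the Endo share was 0.0750% in norm5 (5 cells, interval 0.0244 to 0.175%), 0.132% in norm3 (3 cells) and 0.148% in norm4 (6 cells). It was 0.182% in Scl (26 cells), 0.481% in norm1 (19 cells) and 0.499% in norm2 (33 cells, interval 0.344 to 0.701%). By point value 4 control libraries thus had low shares and 2 had higher ones, and norm5 was the lowest. Counts of 3 to 33 cells do not fix this order. The interval of norm3 (0.0272 to 0.385%) overlapped those of norm5 and of norm1 (0.290 to 0.750%).

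In IRI short the library IRF2 at 1 d held 1.88% Endo cells. The libraries IRF11 and IRF3 at 3 d held 1.66 and 1.82%, and IRF10 and IRF8 at 14 d held 0.623 and 0.841%. All 6 lay above every control library, and the smallest was 14 d library IRF10 (interval 0.484 to 0.789%).

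In IRI long the shares were 5.36% in IRF1 (interval 4.81 to 5.95%) and 4.78% in IRF5 at 1 d. At 3 d they were 2.63% in IRF4 and 3.10% in IRF7, and at 14 d 0.298% in IRF12 (21 cells, interval 0.184 to 0.455%) and 0.678% in IRF9. The libraries of 1 and 3 d lay above every control and every IRI short library, while IRF12 lay below the 2 highest control libraries.

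**Figure D1:**
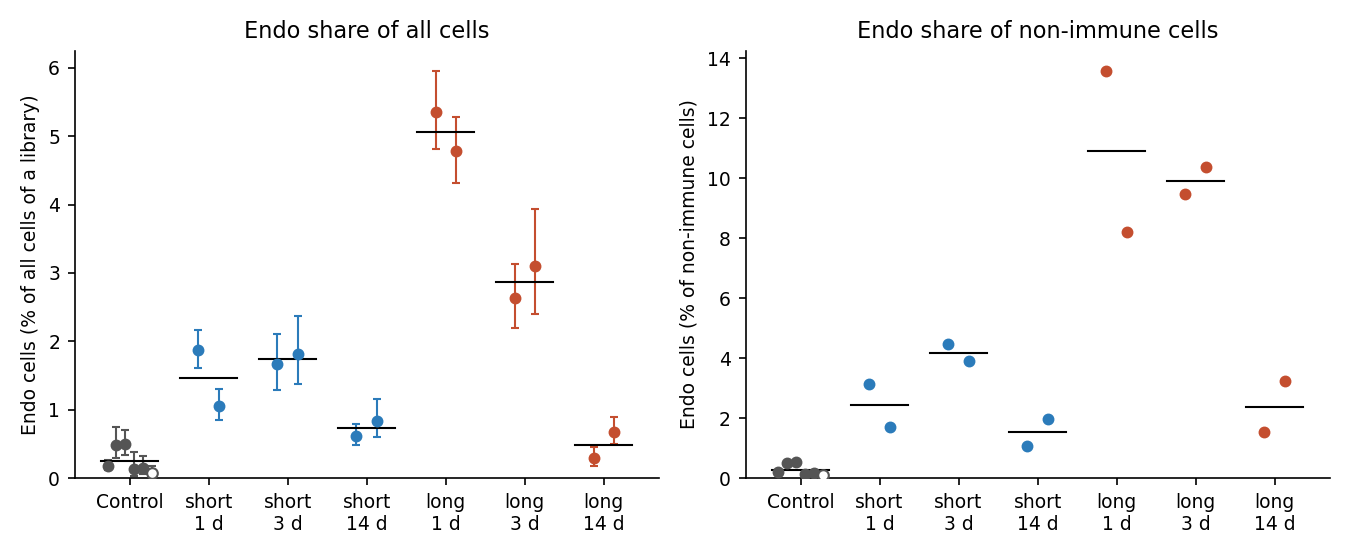
Endo cells of each library by group and day, as percent of all cells (left, with exact 95% binomial intervals) and as percent of the cells in no immune cluster (right). Each point is a library, black lines are group means and the open circle is norm5; the libraries of IRI long at 1 and 3 d, from 2.63 to 5.36% of all cells, stand above all others.

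The difference between IRI short and control was 1.06 percentage points (two-sided exact permutation test over libraries, p = 0.00216, the smallest that 6 against 6 libraries allow). Adjusted with the Benjamini-Hochberg method over the 20 permutation comparisons made, this was 0.0108. Between IRI long and control it was 2.56 percentage points (two-sided exact permutation test, p = 0.00866, adjusted p = 0.0289), with 5 of 6 IRI long libraries above all control libraries. The Endo share was 1.49 percentage points higher in IRI long than in IRI short (permuted within days, exact p = 0.0463, adjusted p = 0.0842), a difference that did not pass after adjustment. Without the libraries of 1 d it was 0.441 (exact permutation test, p = 0.278). Against norm5 alone, a single library and hence no test, the differences were 1.24 percentage points for IRI short and 2.73 for IRI long.

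These are shares of captured cells, and in the comparisons with all control libraries barcode set and ischemia cannot be told apart. For the comparison with norm5 alone, a common barcode set was not tested. Fewer or more cells of a type in the kidney and fewer or more of them surviving dissociation cannot be told apart, nor can an endothelial cell that was lost from one that received another cluster name.

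By day, the mean Endo share was 5.07% in IRI long at 1 d and 2.87% at 3 d, which is 20.0 and 11.3 times the control mean. In IRI short it was 1.47% at 1 d and 1.74% at 3 d, or 5.81 and 6.89 times control. At 14 d it was 0.732% in IRI short and 0.488% in IRI long, or 2.90 and 1.93 times control. Ordered by group mean, the 1 d libraries of IRI long, then its 3 d libraries, then those of IRI short at 3 d did not overlap from one group to the next. The libraries of IRI short at 3 d and at 1 d overlapped, those at 1 d and 14 d did not, the 14 d groups overlapped with one another, and IRI long at 14 d overlapped with control.

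Each group of 2 libraries was also set against the 6 control libraries. The exact permutation test gave p = 0.0357, its smallest possible value, for all groups except IRI long at 14 d, where it gave p = 0.250 for a difference of 0.235 percentage points. On the first 2 days sampled, each IRI long library held more Endo than either IRI short library of that day, but 2 against 2 libraries cannot go below p = 0.333 in an exact test. At 14 d the groups overlapped, with a mean that was lower in IRI long by 0.244 percentage points.

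Within IRI long the Endo share at 14 d was 3.48 percentage points below that at 1 and 3 d, and the 2 later libraries lay below the 4 earlier ones. Within IRI short it was 0.874 points below, again without overlap. Both comparisons gave p = 0.0667, the smallest that an exact permutation test of 2 against 4 libraries allows. From 1 to 14 d the mean share of all cells fell 10.4 times in IRI long and 2.01 times in IRI short. Per cell outside the immune clusters, the measure described next, it fell 4.57 and 1.59 times.

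Immune cells took from 6.11 to 17.8% of control libraries and from 37.8 to 80.6% of IRI libraries, which lowers the share of every other cell type. Endo was therefore also expressed per cell in no granulocyte, monocyte, macrophage, T cell or B cell cluster. On this measure control libraries ranged from 0.0912% (norm5) to 0.532%, with a median of 0.183%. IRI short libraries ranged from 1.07 to 4.47% (median 2.56%) and IRI long libraries from 1.53 to 13.6% (median 8.84%). No IRI library overlapped with control, the 14 d libraries of IRI long (1.53 and 3.23%) included, whereas the libraries of the 2 ischemia times overlapped with each other at 14 d.

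The shares were 2.43 percentage points above control after short and 7.45 after long ischemia (two-sided exact permutation tests, p = 0.00216 and adjusted p = 0.0108 for both). The 2 ischemia times differed by 5.02 points, with IRI long the higher (permuted within days, exact p = 0.0185, adjusted p = 0.0412). That last difference was 3.30 without the libraries of 1 d (exact permutation test, p = 0.111). With the clusters PT S1 and PT S3 also left out of the denominator, an alternative chosen after the values were seen, the control mean was 0.738%, that of IRI short 3.48% and that of IRI long 10.3%.

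The share of every cluster was compared with limma on the logit scale, that is the log odds of a cell being in the cluster, with 0.5 cells added and 7 group means. Endo rose by 1.76 (standard error 0.30, limma adjusted p = 3.32e-05) from control to IRI short, a comparison in which 66.7% of the 18 clusters passed the threshold of 0.05. From control to IRI long Endo rose by 2.20 (standard error 0.30, limma adjusted p = 1.71e-06), where 83.3% of the clusters passed. A call of Endo against control is thus shared with most clusters. Among the clusters that rose it ranked 6 by size of change in both comparisons. When shares were taken relative to the mean of all clusters (centred log-ratio), the change in IRI short was 0.65 and no longer passed (limma adjusted p = 0.0640), and that in IRI long was 1.24 (limma adjusted p = 0.00106). On that scale Endo passed on no single day of IRI short (0.79, 0.84 and 0.31 at 1, 3 and 14 d) and passed in IRI long at 1 d (2.18) and 3 d (1.36). With the barcode set as a term the changes were 2.71 and 3.15. These rest on norm5, the only control grouped with the IRI libraries by barcode overlap. Its spread is assumed to be like that of the other groups, and the changes are given as values only.

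By day, Endo rose by 3.22 in IRI long at 1 d (limma adjusted p = 2.92e-06, 61.1% of clusters called) and by 2.63 at 3 d (limma adjusted p = 1.87e-05, 88.9% called). At 14 d its change in IRI long was 0.76 and did not pass (limma adjusted p = 0.106, 72.2% called). It passed at 2.27 when non-immune clusters were expressed per non-immune cell (limma adjusted p = 0.000325). In IRI short it rose by 1.91 at 1 d (55.6% called), by 2.12 at 3 d (72.2% called) and by 1.24 at 14 d (55.6% called), the last with a limma adjusted p of 0.0184. Without IRF8 or without IRF10, the libraries of IRI short at 14 d, the last change was 1.08 or 1.39 and no longer passed (limma adjusted p = 0.147 and 0.0560).

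Directly between the ischemia times, Endo differed by 0.45 over all days (standard error 0.30, limma adjusted p = 0.344, 27.8% of clusters called). At 1 d the difference was 1.31 (standard error 0.52, limma adjusted p = 0.191), the second largest of the 18 clusters in size, and 5.56% of the clusters passed. It was 0.51 at 3 d, where 0% passed, and −0.47 at 14 d, where 33.3% passed. The fall from 1 and 3 d to 14 d was larger in IRI long by 1.38 on the logit scale (standard error 0.64, limma adjusted p = 0.209, 5.56% called), which did not pass after adjustment. These comparisons depended on the scale. With non-immune clusters expressed per non-immune cell the difference at 14 d was 0.44, of the opposite sign. On the arcsine square-root scale Endo passed over all days (limma adjusted p = 0.00750), at 1 d (limma adjusted p = 0.00158) and for the fall to 14 d (limma adjusted p = 0.0204).

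**Figure D2:**
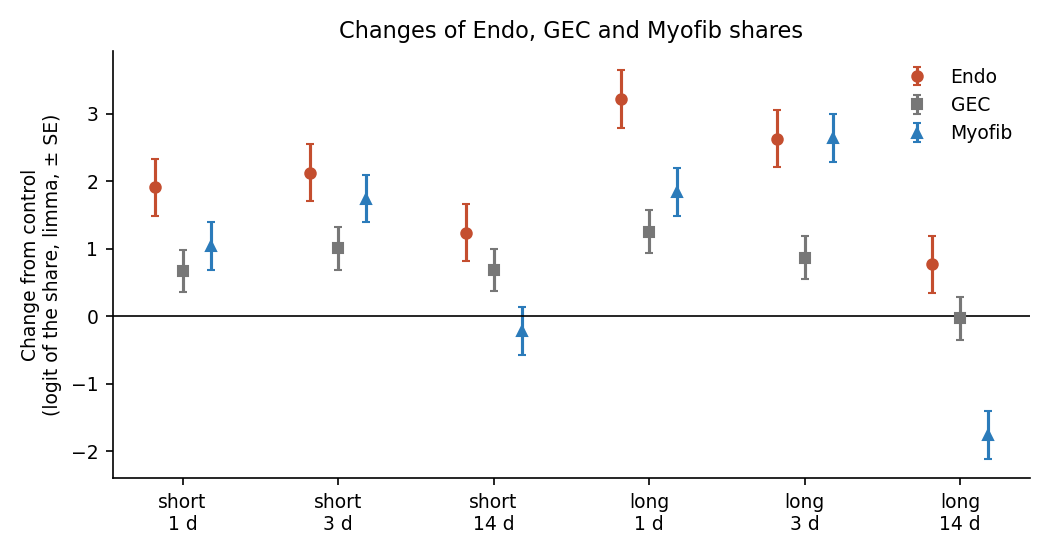
Change from control of the share of all cells, on the logit scale, for Endo (circles), GEC (squares) and Myofib (triangles) by ischemia time and day, with limma standard errors as bars. Endo reaches 3.22 in IRI long at 1 d, GEC 1.25 there, and Myofib falls to −1.76 in IRI long at 14 d.

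GEC, the cluster most like Endo by name, and Myofib, the cluster that the authors named myofibroblasts, were fitted with it. Of the 486 Myofib cells, 286 (58.8%) carry the name SMC in the second annotation and 83 (17.1%) its endothelial name. The rest carry other names. In shares of all cells GEC rose by 0.78 in IRI short (limma adjusted p = 0.00411) and by 0.69 in IRI long (limma adjusted p = 0.00743), less in size than Endo in both. Myofib rose by 0.85 and 0.90, with its highest change, 2.64, in IRI long at 3 d, where the Endo change was 2.63. In IRI long at 14 d Myofib was lower than control by −1.76 (limma adjusted p = 0.000202) from 1 and 2 cells per library, when Endo was at 0.76 and GEC at −0.04. Per non-immune cell the 14 d changes in IRI long were −0.28 for Myofib (limma adjusted p = 0.642), 1.57 for GEC (limma adjusted p = 0.000592) and 2.27 for Endo. The position of both clusters at 14 d thus depended on the denominator. The difference between Endo and Myofib was not tested.

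Whether Endo changed beyond GEC was asked within each library, as the percentage of Endo among Endo and GEC cells together. In control this was 3.05% in norm4, 3.19% in norm3 and 3.82% in norm5, and 8.10, 13.4 and 13.4% in Scl, norm1 and norm2. In IRI short it ranged from 8.66% (IRF10, 14 d) to 24.9% (IRF2, 1 d) with a median of 15.4%. In IRI long it was 36.5 and 31.6% at 1 d, 31.0 and 27.8% at 3 d, and 11.3 and 15.8% at 14 d. All libraries of IRI long at 1 and 3 d lay above all others, while those of 14 d were within the range of IRI short, and 1 library of each ischemia time overlapped with control.

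The mean was 7.49% ± 4.94 in control, 16.7% ± 5.79 after short ischemia and 25.7% ± 9.91 after long ischemia (SD, n = 6 each). IRI short differed from control by 9.20 percentage points (two-sided exact permutation test, p = 0.0130, adjusted p = 0.0371) and IRI long by 18.2 (two-sided exact permutation test, p = 0.00649, adjusted p = 0.0260). Long ischemia was 8.99 points above short ischemia (permuted within days, exact p = 0.0185, adjusted p = 0.0412). Without the 1 d libraries the first of these was 7.43 (exact permutation test, p = 0.0571) and the last 6.57 (exact permutation test, p = 0.111), neither of which passed. The GEC share itself differed from control by 3.33 percentage points in IRI short (exact permutation test, two-sided, adjusted p = 0.0108). In IRI long it differed by 3.41 points (two-sided exact permutation test, p = 0.0411, adjusted p = 0.0823), which did not pass after adjustment. The ischemia times differed by 0.0889 points (permuted within days, exact p = 0.944). Per non-immune cell the GEC differences from control were 9.94 points after short and 16.2 after long ischemia (two-sided exact permutation tests, p = 0.00216 for both, not adjusted).

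The positions of the cells in the authors' UMAP, a map in which cells of like expression lie close together, divide the endothelial cells in a way the names do not. All 1552 Endo cells lay on 1 island of the map together with 2486 GEC cells. A separate island held 3273 GEC cells and no Endo cell, and 89 GEC cells lay on neither. On the shared island Endo formed an upper patch of 1334 cells and a lower patch of 218 cells, no closer to each other than 1.98 map units, with GEC cells between them. Within the range of the island's coordinates 65 cells were neither Endo nor GEC. The UMAP and the clusters came from the same factors, so this arrangement describes the clusters and does not test them.

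**Figure D3:**
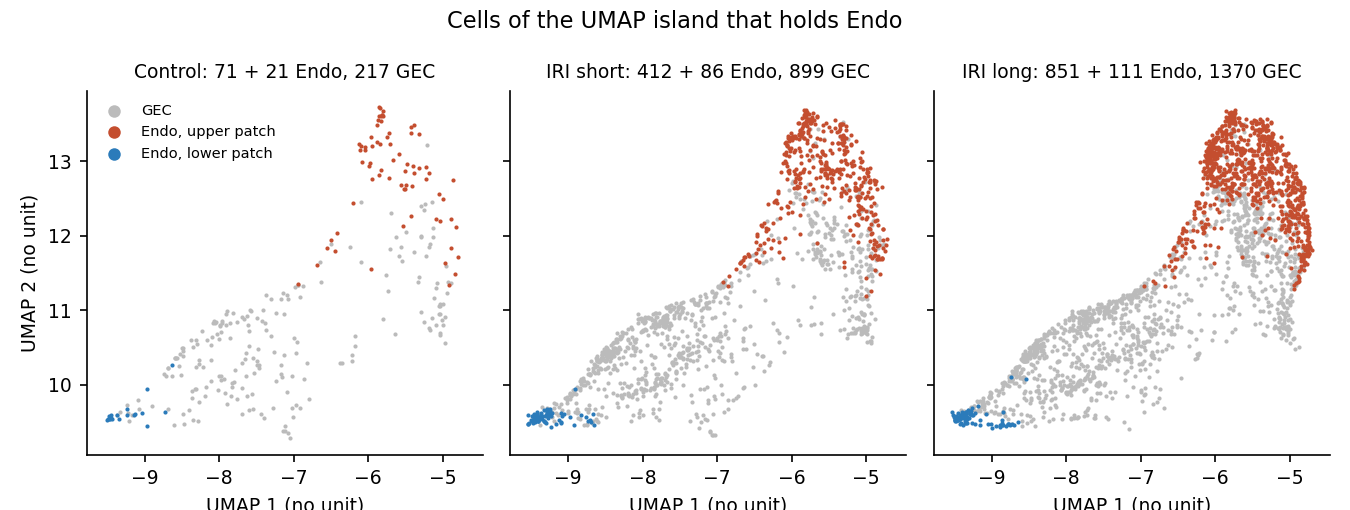
Cells of the UMAP island that holds Endo, drawn separately for control, IRI short and IRI long (axes are UMAP coordinates without unit, each point is a cell). Endo lies at both ends of the island, the upper patch with 71, 412 and 851 cells and the lower patch with 21, 86 and 111, and GEC (grey) fills the space between with 217, 899 and 1370 cells.

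Among the 30 nearest cells of an Endo cell, 82.9% on average were Endo and 17.0% GEC, and no other cluster reached 1%. For 272 Endo cells (17.5%) all 30 neighbours were Endo, and for 130 (8.38%) fewer than 50% were. No difference between groups was detected in this measure. In the 5 control libraries with at least 5 Endo cells the mean was 80.2% ± 12.9 (SD), after short ischemia 81.3% ± 2.24 and after long ischemia 82.4% ± 2.78 (SD, n = 6 each), and the 3 differences gave p = 0.885, 0.729 and 0.315 in exact permutation tests. Without IRF10 the last of them, 2.01 percentage points between IRI long and IRI short, passed (permuted within days, exact p = 0.00926). The spread in control was wide, from 65.6% in norm4 to 96.7% in norm5, which hold 6 and 5 Endo cells.

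Averaged over the days, both patches took a larger share of all cells after ischemia. The upper patch took 0.178% ± 0.172 of a control library, 1.08% ± 0.426 of an IRI short library and 2.46% ± 1.88 of an IRI long library (SD, n = 6 each). Its difference from control was 0.899 percentage points in IRI short (exact permutation test, two-sided, p = 0.00216) and 2.28 in IRI long (two-sided exact permutation test, p = 0.00649). For the lower patch the differences were 0.163 (two-sided exact permutation test, p = 0.0216) and 0.275 (two-sided exact permutation test, p = 0.0411). At 1 d in IRI long the upper patch was 25.8 times its control mean and the lower patch 6.57 times. At 14 d the lower patch was 0.931 times its control mean in IRI long and 1.32 times in IRI short, from 0.0700 and 0.0992% of all cells against 0.0752%. Per non-immune cell these means were 0.347 and 0.199%, against 0.0840% in control. Over pooled cells the upper patch held 77.2% of Endo in control, 82.7% after short and 88.5% after long ischemia, and in norm3 all 3 Endo cells were in the lower patch. The patches were defined after the map was seen, and these p-values were not adjusted.

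The GEC cells that share the island with Endo had a similar course, given here as shares of all cells. In control they made up 0.0750% (norm5) to 1.04% of a library, with a median of 0.901%. In IRI short they were 3.08 and 1.99% at 1 d, 3.65 and 3.54% at 3 d and 1.19 and 1.13% at 14 d. In IRI long they were 7.32 and 6.79% at 1 d, 4.39 and 5.38% at 3 d, and 0.270 and 0.692% at 14 d. All IRI short libraries and the 1 and 3 d libraries of IRI long lay above control, and the 14 d libraries of IRI long lay within it. Per non-immune cell those 14 d libraries held 1.39 and 3.30%, both above the highest control library (1.16%).

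The result for the GEC cells of the other island depended on the denominator. Of all cells they took from 1.66 to 3.92% of a control library (median 2.03%), from 2.52 to 5.56% in IRI short (median 3.73%) and from 1.36 to 3.43% in IRI long (median 2.35%). Their difference from control was 1.58 percentage points after short ischemia (exact permutation p = 0.0325, two-sided and not adjusted) and 0.0024 after long ischemia (exact permutation p = 0.998). Per non-immune cell they took from 1.77 to 4.57% in control, from 4.21 to 14.9% in IRI short and from 4.89 to 13.7% in IRI long. On that measure all 6 IRI long libraries and 5 of 6 IRI short libraries lay above control, by 5.43 points on average after long ischemia (exact permutation p = 0.00216) and 5.53 after short ischemia (exact permutation p = 0.00433). Between the ischemia times they differed by −0.102 points on that measure (permuted within days, exact p = 0.981). The GEC cells of the shared island differed by 6.38 (permuted within days, exact p = 0.0370), with IRI long the higher. Of all cells, those of the other island differed by −1.58 points, with IRI long the lower (permuted within days, exact p = 0.0278). Those of the shared island differed by 1.71 (permuted within days, exact p = 0.111). These p-values were not adjusted.

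With GEC split in this way and limma fitted to 19 clusters, the GEC cells of the shared island rose by 1.41 in IRI short (standard error 0.37, limma adjusted p = 0.00212) and by 1.55 in IRI long (standard error 0.37, limma adjusted p = 0.000814). The remaining GEC cells changed by 0.52 in IRI short (standard error 0.24, limma adjusted p = 0.0658) and by −0.0017 in IRI long (standard error 0.24, limma adjusted p = 0.995). In the same fit Endo rose by 1.76 and 2.20. With clusters outside the immune ones fitted per non-immune cell, the remaining GEC cells rose by 1.14 in IRI short (limma adjusted p = 0.000456) and by 1.13 in IRI long (limma adjusted p = 0.000434). The GEC cells of the shared island then rose by 2.01 and 2.71, and Endo by 2.34 and 3.33. The split and the GEC values per non-immune cell were chosen after the data were seen.

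**Figure D4:**
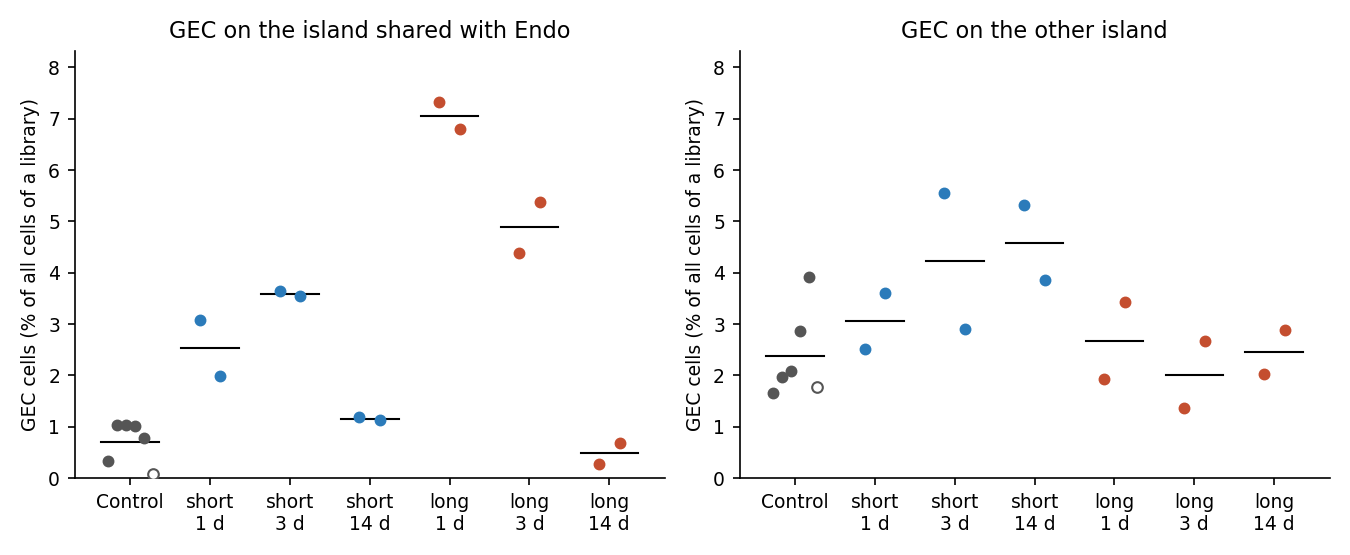
GEC cells of each library on the UMAP island shared with Endo (left) and on the other GEC island (right), as percent of all cells, on the same scale. Points are libraries, lines group means and the open circle norm5; the shared island reaches 7.32% in IRI long at 1 d, while the other island stays between 1.36 and 5.56% of all cells.

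Accordingly, Endo was compared with only the GEC cells of its own island in the first map. In control the percentage of Endo on the island ranged from 11.5% (norm3, 3 cells) to 50.0% (norm5, 5 of 10 cells), with a median of 32.2%. It ranged from 31.3 to 42.7% in IRI short and from 36.6 to 52.5% in IRI long, whose 14 d libraries had the highest values, 52.5 and 49.5%. Against control the differences were 6.38 percentage points in IRI short (exact permutation test, two-sided, p = 0.303) and 13.8 in IRI long (two-sided exact permutation test, p = 0.0563), and neither passed. IRI long was 7.43 points above IRI short (permuted within days, exact p = 0.00926, the smallest possible). On all 3 days each IRI long library was higher than either IRI short library. The split by island was made after the map was seen, and the p-values of this paragraph were not adjusted. The change of Endo relative to GEC against control was thus larger than the spread between libraries for GEC as a whole. The same did not hold for the GEC cells next to Endo in the first map.

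**Figure D5:**
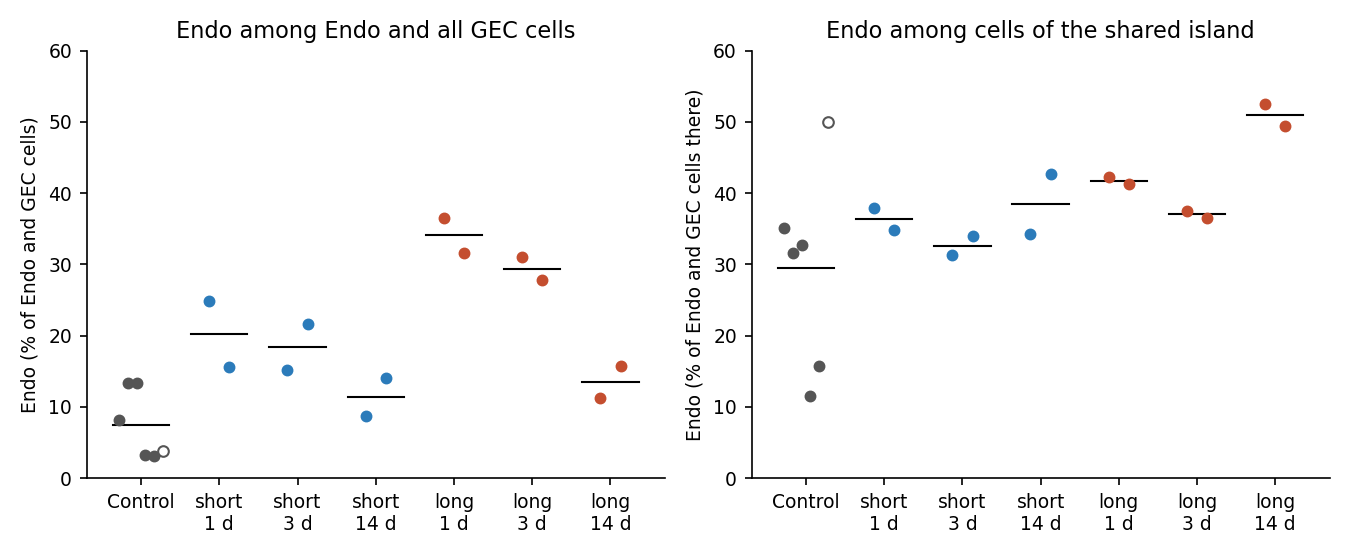
Endo as percent of Endo and all GEC cells (left) and as percent of Endo and those GEC cells that share its UMAP island (right), per library, with group means as lines and norm5 as an open circle. On the left the libraries of IRI long at 1 and 3 d lie from 27.8 to 36.5%, above all others, and on the right control libraries spread from 11.5 to 50.0% and overlap with both IRI groups.

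The authors annotated the same cells a second time together with the inhibitor libraries, in 136794 cells and 19 clusters, and all 1552 Endo cells are found there. The second annotation has a single endothelial cluster, named GEC, Endo. It took in 1460 Endo cells, or 94.1%. Another 82 Endo cells, or 5.28%, became PST, the name of the straight part of the proximal tubule, and the remaining 10 became PT (7), CD-IC (2) and T cell (1). Of the 7628 cells of that cluster, 5374 were GEC, 1460 were Endo and 564 came from the inhibitor libraries. The renaming was not particular to Endo. Of the 2486 GEC cells on the island shared with Endo, 2221 (89.3%) took the endothelial name, 117 (4.71%) became PST and 65 (2.61%) PT.

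The cells renamed as PST all lay in the upper patch. None came from control, 23 came from IRI short and 59 from IRI long, and 51 of them from IRI long at 1 d. They were surrounded by Endo in the first map (91.7% of their 30 nearest cells), and all 218 cells of the lower patch kept the endothelial name. Per library, the percentage of Endo cells that kept it was 100% in all control libraries, 89.7 to 100% in IRI short and 89.1 to 100% in IRI long. For the 5 control libraries with at least 5 Endo cells the differences of −3.45 and −4.86 percentage points gave p = 0.152 and 0.106 in two-sided exact permutation tests, and neither passed. Single libraries decided this, since the difference was −4.14 without IRF3 or without IRF8 in IRI short and −5.83 without IRF12 or without IRF9 in IRI long, each then past the threshold (exact permutation p = 0.0476). With only the cells that kept an endothelial name, the Endo share still exceeded control by 1.01 percentage points after short and 2.35 after long ischemia (two-sided exact permutation tests, p = 0.00216 and 0.00866).

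In the second map Endo and GEC were no longer apart. Of the 30 nearest cells of an Endo cell there, 25.1% were Endo, 26.2% GEC of the shared island and 42.2% GEC of the other island. These sets hold 1552, 2486 and 3273 cells, so Endo was not nearer to GEC of the shared island in the second map. The division by island is that of the first map. When cells of the second annotation were given the first name that was most frequent among their nearest neighbours, 7.67% of known Endo cells were called Endo, against 97.9% of GEC cells called GEC. Endo could therefore not be separated from GEC in the inhibitor libraries, and values are given for both together.

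In the VX-765 library the cluster GEC, Endo took 4.08% of 10610 cells (433 cells, interval 3.71 to 4.48%). In the liproxstatin library it took 1.04% of 12605 cells (131 cells, interval 0.870 to 1.23%). The IRI long libraries at 14 d, whose labels name no inhibitor and no vehicle, had 2.70% (IRF12) and 4.26% (IRF9). Control libraries had 2.00 to 4.96%, with a mean of 3.50% ± 1.16 (SD, n = 6). The liproxstatin library was thus below all control and IRI long 14 d libraries, and the VX-765 library lay between them. Per cell in no immune cluster of the second annotation the values were 4.63% with VX-765 and 1.10% with liproxstatin. They were 10.9 and 12.0% in IRI long at 14 d, and from 2.28 to 5.57% in control. With 1 library for each inhibitor there is no test. The immune clusters of the second annotation took 11.8% of the VX-765 library and 5.13% of the liproxstatin library. They took 75.2 and 64.5% of the IRI long 14 d libraries IRF12 and IRF9, against 80.6 and 79.0% in the first annotation. At 3 d the 2 annotations differed more, with 42.2 against 70.1% in IRF7. The values per non-immune cell given here are thus not the same measure as those of the first annotation above.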

How the data were processed

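The authors aligned the reads to mm10 (GRCm38) with Cell Ranger. They kept cells within limits on detected genes and mitochondrial reads, took out doublets, joined the libraries with LIGER and gave names to Louvain clusters. The deposited tables hold these names, the treatment group and 2 UMAP scores per cell, that is coordinates without unit, and no UMI counts. How the second annotation was made is not given in the sources used here for this cell number.

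A library was identified by the shared part of its cell names and assigned to its group by the labels of its cells. Its replicate number could not be assigned. Each library was taken as 1 mouse, so p-values measure the spread between libraries. Endo counts were divided by all cells, by cells in no immune cluster, or by Endo and GEC cells. Mean shares of libraries were tested by exact permutation, two-sided (924 ways for 6 against 6, 216 within days between the ischemia times, 15 for 2 against 4), whereas the study's proportion analysis permutes cells. All clusters were compared with limma 3.58.1 (R 4.3.3), adjusted with the Benjamini-Hochberg method over the clusters of a comparison at 0.05. The permutation code was compared with another implementation on random numbers and with a case of known answer. The limma fit was checked on simulated counts with large changes, drawn for each cluster on its own. That check does not cover shares that move together because they add up to a whole.

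UMAP islands and Endo patches are groups of cells joined by DBSCAN at a distance of 0.5, with a minimum of 15 cells for islands and 5 for patches. Comparisons of neighbours and second names used libraries with at least 5 Endo cells. Named clusters were Endo, GEC and Myofib, and any with at least 5% of the Endo cells or of their neighbours. PT S1 and PT S3 were named after their values were seen. Computations used python 3.11.15, numpy 2.4.6, pandas 2.3.3, scipy 1.17.1, scikit-learn 1.9.0 and matplotlib 3.10.9. The members, lists and tests were chosen with earlier results of these data known. Gene expression, bulk RNA-seq and chromatin were not analysed here. The Endo share of 1 IRI short library at 1 d is not reported here on its own.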

Additional observations from a re-analysis of the deposited data

Results flagged for a closer look

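One library stood apart from the other 5 of its group in the GEC share: IRF11 (IRI short, 3 d) held 9.28% GEC cells, against 5.11 to 6.57% in the others. In the percentage of Endo among the 30 nearest cells of its Endo cells, IRF8 (IRI short, 14 d) was apart at the low end with 77.2%, against 80.9 to 83.1% in the others. These were 2 of 20 groups examined, and chance gives about 1 in 20.

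The 3 measures of Endo that differed between the ischemia times were its share of all cells (higher in IRI long by 1.49 percentage points), its share of non-immune cells (by 5.02) and its share of Endo and GEC cells (by 8.99). The exact permutation tests within days gave p = 0.0463, 0.0185 and 0.0185, and in each measure 4 of 6 IRI long libraries, those of 1 and 3 d, lay above all IRI short libraries. The first did not pass after adjustment over 20 comparisons (adjusted p = 0.0842).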

How the results depend on the processing

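The threshold of 0.05 applies here to the unadjusted p of permutation tests and to the adjusted p of limma. Of 202 values tested under other settings, 167 kept their direction and side of the threshold. Among them were all 7 each of the Endo share of IRI short and of IRI long against control. Those 7 include the joint cluster GEC, Endo of the second annotation, 70.5% of which was GEC. Its values were counted for the GEC share as well. Another 23 values have no test, and all kept their direction and moved by less than 1 SD. The tested values that did not are these, and their cause was not tested. For the Endo share of IRI long against IRI short (1.49), the logit gave 0.45, thinning to 2064 cells 1.61, the joint cluster GEC, Endo of the second annotation 1.33, permuting without regard to day 1.49 (exact permutation p = 0.128), leaving out 1 d 0.441 and the lower patch alone 0.112, none past the threshold. For its share of non-immune cells, that joint cluster, among cells non-immune in the second annotation, gave 5.07 and leaving out 1 d 3.30. For the Endo share of endothelial cells, IRI short against control was 7.43 without 1 d and 6.38 with only GEC of the shared island, IRI long against control 13.8 with the latter, and IRI long against IRI short 8.99 when permuted without days (exact permutation p = 0.0801) and 6.57 without 1 d. The GEC share of IRI long against control was 3.09 after thinning, 1.79 without 1 d and 0.0024 on the other island. Between IRI long and IRI short it changed sign with the logit (−0.0912), thinning (−0.113), without 1 d (−1.92) and on the other island (−1.58 of all cells, −0.102 per non-immune cell). Per non-immune cell it passed for all GEC (6.25) and for GEC of the shared island (6.38). Thinning also turned the neighbour difference of IRI long against IRI short to −0.496. In limma the arcsine square root gave calls for Endo between the ischemia times over all days (0.0425), at 1 d (0.107) and for the change to 14 d (−0.0891). The centred log-ratio took away the calls for IRI short against control (0.65) and at 1 d (0.79), 3 d (0.84) and 14 d (0.31). With immune and other clusters apart, IRI long at 14 d differed from control by 2.27, a call, and from IRI short by 0.44, the opposite sign. The joint cluster GEC, Endo gave 0.68 for IRI short at 14 d, no call. The barcode set as a term gave 1.72 for IRI long at 14 d, a comparison with norm5 alone that is not used as a call.

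When single libraries were dropped one by one, the Endo difference between IRI long and IRI short ran from 1.36 to 1.63 and missed the threshold without IRF3, IRF7, IRF9, IRF10 or IRF11. The GEC difference ran from 2.66 to 4.26 for IRI long against control and lost its call without any of 8 libraries, and from −0.362 to 0.539 between the ischemia times. Second names ran from −4.14 to −2.08 in IRI short, from −5.83 to −3.65 in IRI long and from −3.12 to 0.306 between them, the neighbour percentages from −2.60 to 5.18, from −1.51 to 6.27 and from 0.178 to 2.01. Second names passed against control without IRF3, IRF8, IRF9 or IRF12, and neighbours between the ischemia times without IRF10. In limma the change at 14 d ran from 1.05 to 1.41 in IRI short and from 0.36 to 1.17 in IRI long, where it passed without norm1 or norm2. No paired analysis was possible because the cell names carry no replicate numbers, so the replicate block was not run. The second annotation has 1 endothelial cluster, so the Endo share of endothelial cells was not computed there.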

Other observations

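Whether the island that holds Endo and part of GEC was at the control level in IRI long at 14 d depended on the denominator. Its Endo and GEC cells together were 0.966% ± 0.552 (SD, n = 6) of all cells of a control library. After long ischemia their mean over 2 libraries was 12.1% on day 1, 7.75% on day 3 and 0.968% on day 14, and after short ischemia 4.00, 5.33 and 1.89%. Per non-immune cell the 2 IRI long libraries of day 14 held 2.92 and 6.53%, both above the highest control library (1.65%). Of all GEC cells, 72.2, 70.9 and 15.3% lay on this island after long ischemia and 44.4, 46.6 and 20.1% after short ischemia on the same days, against 21.3% ± 11.1 (SD, n = 6) in control. These values were looked up after the map was seen and were not tested.

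In norm5, grouped with the IRI libraries by barcode overlap, 5 of 6666 cells were Endo. Another 5 were GEC cells of the shared island, or 0.0750%, against 0.335 to 1.04% in the 5 other control libraries.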
